A study of Torulaspora microellipsoides with 8 samples.

Results

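Metabolite carriers are small membrane proteins that move nucleotides, phosphate, amino acids and organic acids across the mitochondrial inner membrane. This account describes the transcripts named for 10 such carriers of Saccharomyces cerevisiae (YMC1, YMC2, PET9, MIR1, OAC1, DIC1, CTP1, SFC1, ODC2 and LEU5) in opaque and white cells of the yeast Torulaspora microellipsoides. Members were the transcribed regions whose best S. cerevisiae protein match carried a listed name. This gave 14 regions under 7 of the 10 names, out of 4464 regions counted in all. YMC2, MIR1 and LEU5 were not analysed here. The members were chosen by name, but the list of names was proposed with the opaque-to-white fold changes of these cultures already known, and no threshold on them was used. The levels and fold changes of the 14 regions are therefore a description and not a test of them. No p-value is given for them, and how many passed the threshold used for all regions is stated without support being drawn from it.

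The study sequenced mRNA from 3 opaque and 3 white cultures. The groups are named for the look of their colonies, and opaque cells, which arise from white cells, are the bigger type and contain more DNA. All 6 cultures were unmodified cells of the same strain, grown without any treatment in yeast extract glucose medium at 23 °C. The paper gives this strain an NCYC designation, whereas the reference genome for the reads is named CLIB830T. They were grown from an OD600 of 0.05 to log phase at an OD600 of 1.0. Cell type was the only factor that the design varied, and cell size and DNA content differ along with it. Libraries held 24948791 to 50126043 counts in opaque and 27057131 to 36957019 counts in white cultures. Genes that the study had measured by RT-qPCR in the same cell types, and that are thus no independent check of the labels, lay on the labelled side. GAP1, MEP2 and RPL30 were higher in opaque cells (3 of 3, median log2 fold change 4.14) and GLK1, CTT1 and XBP1 were lower (3 of 3, median -4.08). Of all 4404 regions tested with edgeR, 74.2% differed between the cell types at an adjusted p under 0.05, with 36.6% higher and 37.6% lower in opaque cells.

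Most of these carriers belong to a single protein family and work as exchangers, which bring in a metabolite while letting another out. PET9 is the main exchanger of cytosolic ADP for mitochondrial ATP, and so links respiration to the rest of the cell. Several of the others connect the tricarboxylic acid cycle with the cytosol. In S. cerevisiae CTP1 carries citrate, DIC1 carries malate and succinate against phosphate, and SFC1 exchanges succinate for fumarate, which growth on acetate or ethanol needs. OAC1 carries oxaloacetate and also the leucine precursor isopropylmalate, ODC2 exports 2-oxoglutarate and 2-oxoadipate for glutamate and lysine synthesis, and YMC1 has been linked to glutamate transport and oleate use.

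The carriers did not move as a block. YMC1 on scaffold 8, CTP1 on scaffold 3, OAC1 and ODC2 were higher in opaque cells by 23.8-, 12.3-, 3.07- and 1.98-fold, while PET9, SFC1 on scaffold 7 and DIC1 were lower, at 0.61, 0.501 and 0.739 times the white level. All 14 regions passed the filter on low counts. All 14 also passed the edgeR threshold, 9 of them higher and 5 lower in opaque cells, and their opaque and white libraries did not overlap in any of the 14. Because the list was drawn up with this contrast in view, nothing is read from these counts; of all tested regions 74.2% passed the threshold and 77.8% had libraries that did not overlap. The median log2 fold change, opaque minus white, was 1.0 over the 14 regions, against -0.02 over all tested regions. Over the 8 regions longer than 800 bp, it was 0.71 (5 higher, 3 lower), and over the 6 regions shorter than 400 bp it was 1.01 (4 higher, 2 lower). These medians and splits count some signals more than once. Of the short regions, 3 named SFC1 had nearly the same counts and are treated below as a single measurement, and the DIC1 regions may not be independent. With 1 region kept of each such set, an alternative chosen after seeing the data, 7 were higher and 4 lower.

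**Figure D1:**
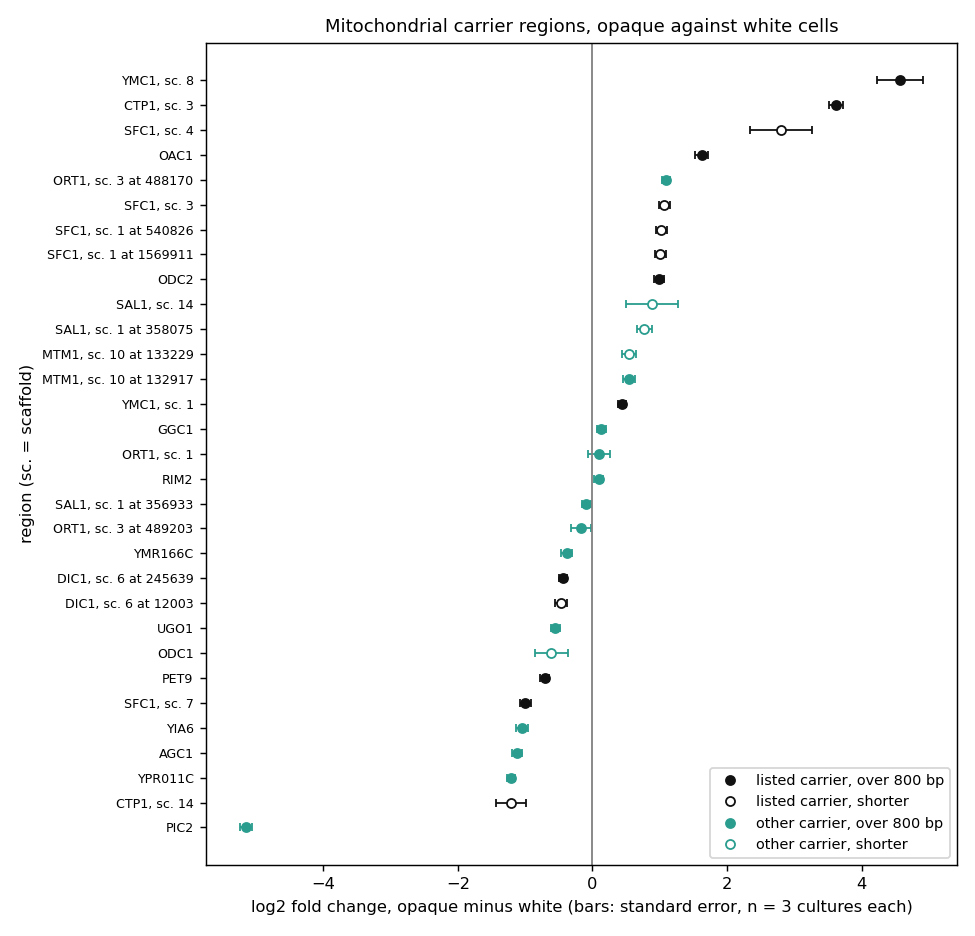
Log2 fold change of each carrier region, opaque minus white (x axis), for the 14 regions of the listed carriers (black) and the 17 regions of other carriers (teal), with bars of 1 standard error from the edgeR fit over 3 opaque and 3 white cultures. Filled points are regions over 800 bp. YMC1 on scaffold 8 lies furthest to the right at 4.57 and PIC2 furthest to the left at -5.14, and the listed carriers fall on both sides of 0.

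PET9, the ADP/ATP carrier, was the most abundant of these transcripts in white cells. Its region lies on scaffold 5 at positions 598490 to 599386 of the CLIB830T genome, on the plus strand, and matched the S. cerevisiae protein at 90.97% identity, the closest match of the 14 regions. After TMM normalization it had 1176.6, 1235.5 and 1129.2 CPM (counts scaled to library size) in the opaque libraries, against 1877.4, 1995.9 and 1933.3 CPM in the white libraries. Every opaque library lay below every white library, and the log2 fold change was -0.71 with a standard error (SE) of 0.0643. As the cultures were sequenced in bulk and scaled to total mRNA, these values are relative to the other transcripts. Less transcript per cell, fewer cells making it and a different amount of total mRNA per cell cannot be told apart.

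YMC1 was the name of a pair of regions that behaved very differently. The region on scaffold 8 (695946 to 696854, plus strand, 57.98% identity) had 1134.1, 1226.9 and 1314.0 CPM in opaque libraries, against 56.1, 29.7 and 68.8 CPM in white libraries. The log2 fold change was 4.57 (SE 0.344), which put it at place 12 of 4404 when regions were ordered from the highest opaque-to-white change. Its opaque libraries agreed closely and its white libraries did not. The coefficient of variation was 7.34% in opaque cells, near the median of 6.36% over all tested regions, and 38.8% in white cells, where the median was 6.85% and 96.5% of tested regions varied less. The lowest white library, culture 2, still held 1087 counts of this region. Without white culture 2 the log2 fold change was 4.29, and without white culture 3, the highest of the white libraries, it was 4.83.

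The other YMC1 region, on scaffold 1 (279648 to 280559, minus strand), was closer to the S. cerevisiae protein at 77.12% identity and differed far less between cell types. It had 91.7, 88.7 and 92.9 CPM in opaque libraries, against 66.9, 69.8 and 64.5 CPM in white libraries. The opaque level was thus 1.36 times the white level (log2 fold change 0.44, SE 0.06), with tight libraries in both groups. The ratio of the scaffold 8 region to the scaffold 1 region, per base pair, was 12.4, 13.9 and 14.2 in the opaque libraries, against 0.841, 0.427 and 1.07 in the white libraries. In white cells the levels of the pair were thus of the same order, whereas in opaque cells the scaffold 8 region made up nearly all YMC1-named mRNA.

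CTP1, the citrate carrier, showed the next largest change among the regions over 800 bp. Its region on scaffold 3 (535051 to 535911, plus strand, 83.28% identity) had 185.8, 158.8 and 188.4 CPM in opaque libraries, against 16.1, 12.9 and 14.4 CPM in white libraries. The log2 fold change was 3.62 (SE 0.1), at place 50 of 4404. A further region named CTP1, on scaffold 14 (9891 to 10238, plus strand), matched the protein at only 26.19% identity over 348 bp, against a median of 58.82% over all regions, so that its name is uncertain. It held few reads and ran the other way. There were 73, 46 and 40 counts in opaque libraries, against 84, 166 and 169 counts in white libraries, which is a log2 fold change of -1.21 (SE 0.219). Summing the counts over both regions before the fit gave 3.24.

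OAC1, the oxaloacetate and isopropylmalate carrier, was also higher in opaque cells. Its region on scaffold 1 (854732 to 855697, minus strand, 81.68% identity) had 160.3, 121.2 and 133.5 CPM in opaque libraries, against 45.6, 43.9 and 46.0 CPM in white libraries. The log2 fold change was 1.62 (SE 0.0959). Here the opaque libraries were the more variable group, with a coefficient of variation of 14.5%, against 2.52% in white cells, and even the lowest opaque library was well above the highest white library.

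ODC2, the 2-oxoglutarate and 2-oxoadipate carrier, was higher in opaque cells too, but by less than OAC1. Its region on scaffold 2 (422867 to 423763, minus strand, 63.67% identity) had 283.5, 257.2 and 294.1 CPM in opaque libraries, against 134.9, 149.6 and 136.7 CPM in white libraries. The log2 fold change was 0.99 (SE 0.0726), and the libraries of each group stayed close together.

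SFC1, the succinate and fumarate carrier, was lower in opaque cells by its full-length region. That region, on scaffold 7 (641397 to 642317, plus strand, 87.74% identity), had 121.7, 113.8 and 105.3 CPM in opaque libraries, against 220.2, 250.5 and 210.5 CPM in white libraries. The log2 fold change was -1.0 (SE 0.0825), with every opaque library below every white library.

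A set of 4 short regions also carried the name SFC1, and all of them were higher in opaque cells. On scaffold 1 at 540826 to 540891 and 1569911 to 1569976 and on scaffold 3 at 894983 to 895048 lie regions of 66 bp, each matching the SFC1 protein at 40.91% identity. With so short a match, the name of these regions is uncertain. Their log2 fold changes were 1.02 (SE 0.0835), 1.01 (SE 0.0851) and 1.07 (SE 0.0869). The counts of the 3 were almost the same in each library, for example 2713, 2681 and 2721 counts in opaque culture 1. Relative to the first, the second had 0.976 to 0.99 and the third 0.952 to 1.0 times the counts over the 6 libraries. They are therefore treated as a single measurement, and whether a read was counted at more than 1 of these places is not given in the sources used here.

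The last SFC1-named region, 60 bp on scaffold 4 (31310 to 31369, minus strand, 45.0% identity), held few reads. It had 143, 39 and 40 counts in opaque libraries, against 12, 16 and 4 counts in white libraries. Its log2 fold change of 2.8 carried the largest SE of the 14 regions, 0.458. It was also the sole region of the 14 that was not covered by reads over its whole length in every library. Because the short and the full-length regions ran in opposite directions, summing all 5 SFC1-named regions before the fit moved the log2 fold change to -0.15, against -1.0 for the full-length region. The full-length region was used to describe SFC1.

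DIC1, the dicarboxylate carrier, was slightly lower in opaque cells at both of its regions, which lie far apart on scaffold 6. The longer region (245639 to 246478, plus strand, 67.97% identity) had 84.6, 79.6 and 82.8 CPM in opaque libraries, against 111.2, 116.8 and 106.4 CPM in white libraries, a log2 fold change of -0.44 (SE 0.0624). The shorter region (12003 to 12338, plus strand, 67.86% identity) had 26.9, 24.9 and 24.5 CPM in opaque libraries, against 35.5, 38.0 and 32.7 CPM in white libraries, a log2 fold change of -0.47 (SE 0.085). In neither were the differences between libraries of a group as large as the difference between cell types.

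The DIC1 regions resembled each other beyond their direction. The shorter had 0.742 to 0.814 times the counts per base pair of the longer in all 6 libraries. A region named for the actin-binding protein SLA2 precedes each of them, 3524 bp before the longer and 3266 bp before the shorter DIC1 region, at 69.53% and 68.75% identity. Both SLA2 regions were lower in opaque cells, with log2 fold changes of -0.71 and -0.46 (edgeR adjusted p = 1.6e-05 and adjusted p = 0.026). How reads that match both places were counted is not given in the sources used here, and the values of the DIC1 pair may not be independent.

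**Figure D2:**
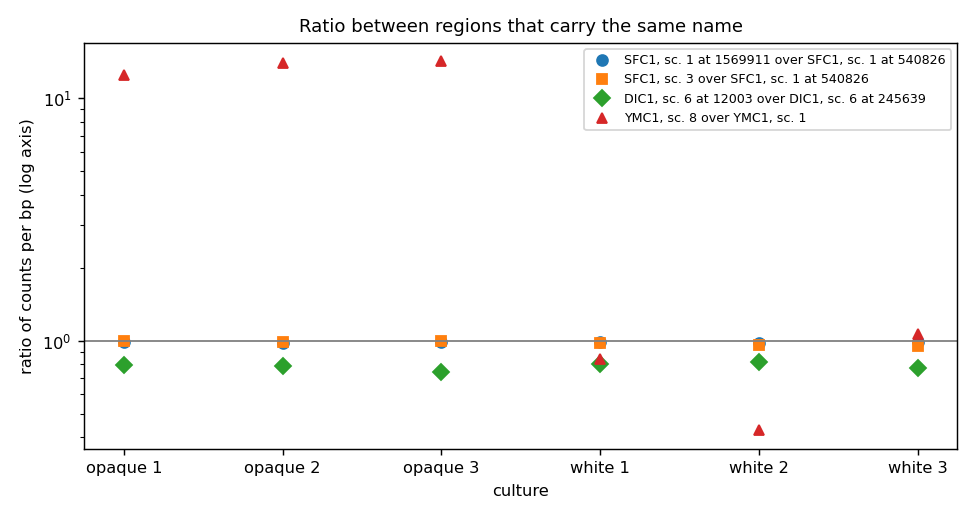
Ratio of counts per base pair between regions that share a name (y axis, log scale) in each of the 3 opaque and 3 white cultures (x axis). The ratios among the 3 SFC1 regions of 66 bp and between the DIC1 regions stay nearly level, at 0.952 to 1.0 and 0.742 to 0.814. The YMC1 ratio is 12.4 to 14.2 in opaque and 0.427 to 1.07 in white cultures. The other SFC1-named regions are not shown. The CTP1 pair is not shown either, and its ratio was 0.0204 to 0.0297 in opaque and 0.453 to 0.866 in white cultures.

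To compare carriers with each other, CPM were divided by region length in kilobases. The order is given here for the 8 regions over 800 bp. The 3 SFC1 regions of 66 bp, which are treated as a single measurement, had means of 886.0 to 901.7 CPM per kb in opaque cells. In white cells they had 429.1 to 445.8 CPM per kb, and in both they lay below PET9 and above ODC2. They are shorter than a sequenced read, so that this level is not directly comparable with that of the long regions. In opaque cells YMC1 on scaffold 8 and PET9 stood at the head of the long regions with 1347.6 ± 99.0 and 1316.0 ± 59.4 CPM per kb (mean ± SD, n = 3), and their libraries overlapped. ODC2 followed at 310.2 ± 21.2, CTP1 on scaffold 3 at 206.3 ± 19.0 and OAC1 at 143.2 ± 20.7 CPM per kb. OAC1 was not separated from SFC1 on scaffold 7, at 123.3 ± 8.93, nor YMC1 on scaffold 1, at 99.9 ± 2.4, from the longer DIC1 region, whose libraries ran between 94.7 and 100.7 CPM per kb.

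In white cells the order of the long regions was different. PET9 stood alone at the head with 2157.8 ± 66.1 CPM per kb (mean ± SD, n = 3), followed by SFC1 on scaffold 7 at 246.6 ± 22.6, ODC2 at 156.6 ± 8.95 and the longer DIC1 region at 132.7 ± 6.2 CPM per kb. YMC1 on scaffold 1, at 73.5 ± 2.89, overlapped YMC1 on scaffold 8, at 56.7 ± 22.0, which in turn overlapped OAC1 at 46.8 ± 1.18 CPM per kb. CTP1 on scaffold 3 was the lowest of the long regions at 16.8 ± 1.84 CPM per kb. CTP1 thus stood above OAC1, SFC1 and DIC1 in opaque cells and below all of them in white cells, and SFC1 stood below CTP1 and ODC2 in opaque cells and above both in white cells.

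Among all 4464 counted regions, PET9 ranked between 149 and 160 by level per kilobase in the opaque libraries and between 98 and 108 in the white libraries. YMC1 on scaffold 8 ranked between 145 and 159 in opaque libraries, beside PET9, and between 1682 and 2866 in white libraries. CTP1 on scaffold 3 ranked between 700 and 799 in opaque libraries and between 3503 and 3631 in white libraries.

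**Figure D3:**
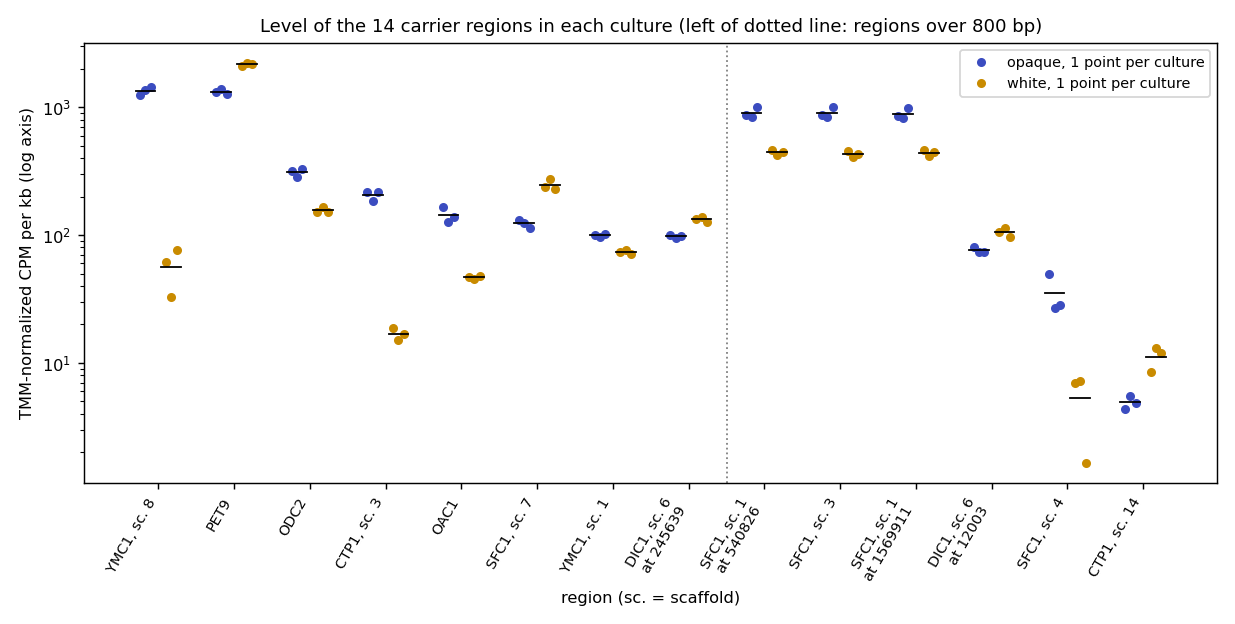
Level of each of the 14 carrier regions in TMM-normalized CPM per kb (y axis, log scale), with 1 point for each opaque (blue) and white (ochre) culture and a line at the mean of 3. Regions over 800 bp stand left of the dotted line and shorter ones right of it. The opaque points lie above the white points for YMC1, ODC2, CTP1 on scaffold 3 and OAC1 and below them for PET9, SFC1 on scaffold 7 and DIC1.

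Added together, the 8 long regions came to 3644.5 ± 56.9 CPM per kb in opaque cells and 2887.4 ± 79.1 CPM per kb in white cells (mean ± SD, n = 3 each). The make-up of this sum differed more than its size. PET9 made up 36.5%, 37.8% and 34.0% of it in opaque libraries, against 74.3%, 74.9% and 75.0% in white libraries. YMC1 on scaffold 8 made up 34.7%, 37.1% and 39.0% in opaque libraries, against 2.19%, 1.1% and 2.64% in white libraries. In white cells PET9 therefore outweighed the 7 other regions together, and in opaque cells it shared the lead with the YMC1-named region on scaffold 8.

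The shares of the organic acid carriers also changed places. CTP1 on scaffold 3 made up 5.07% to 6.01% of the sum in opaque libraries and 0.505% to 0.664% in white libraries. SFC1 on scaffold 7 made up 3.09% to 3.68% in opaque libraries and 7.95% to 9.15% in white libraries. YMC1 on scaffold 1 held about the same share in both, 2.67% to 2.8% in opaque libraries and 2.46% to 2.61% in white libraries. A share depends on all other members of the sum.

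**Figure D4:**
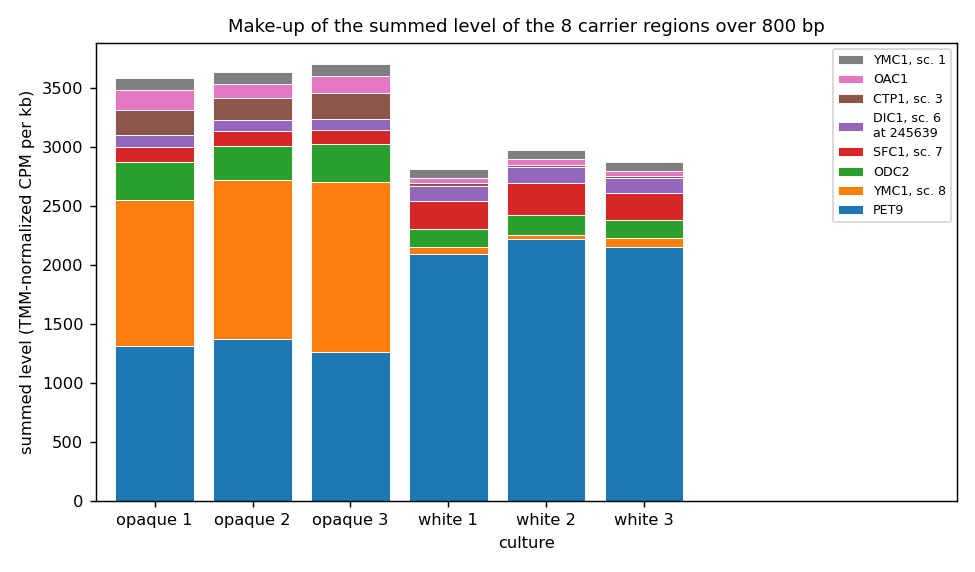
Summed level of the 8 carrier regions over 800 bp in TMM-normalized CPM per kb (y axis) in each opaque and white culture (x axis), with each region as a coloured part of the bar. PET9 makes up 34.0% to 37.8% of the bar in opaque cultures and 74.3% to 75.0% in white cultures, and YMC1 on scaffold 8 makes up 34.7% to 39.0% and 1.1% to 2.64%.

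The position of the regions gave a measure of their names that did not rest on transcript levels. Of the 3 regions on either side of each member, those whose own S. cerevisiae match lay on the same chromosome arm, within 10 in systematic number, were counted. For PET9 these were 5 of 6, for SFC1 on scaffold 7 they were 4 of 6, and for YMC1 on scaffold 1 they were 4 of 6. CTP1 on scaffold 3 had 3 of 6, all of them pieces of SNF5. OAC1 had 2 of 6, and ODC2 and SFC1 on scaffold 4 had 1 of 6 each. Of all 4433 directly adjacent pairs of regions, 42.1% met the same rule. That share is not a like measure, since the member counts reach up to 3 regions away and adjacent pairs include pieces of the same gene. YMC1 on scaffold 8 had 0 of 6, CTP1 on scaffold 14 had 0 of 5, the DIC1 regions had 0 of 6 and 0 of 4, and the 3 SFC1 regions of 66 bp had 0 of 6 each. The YMC1 region with the large change was thus the more divergent of the pair in sequence and lay outside the S. cerevisiae neighbourhood, and the one that kept the neighbourhood changed little.

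The neighbours of YMC1 on scaffold 1 and of ODC2 also included those of a related S. cerevisiae carrier. The YMC1 region lies between regions named for FCY1, JID1, BRR1 and TFB4, which are neighbours of YMC1 in S. cerevisiae, and next outside these lie VID24 and SIF2, which flank YMC2 there. Of the 6 regions around ODC2, YOR223W is a neighbour of ODC2 in S. cerevisiae, while GIP3, ISU1, RDS2 and COX11 lie there beside ODC1, the related carrier gene that also exports 2-oxoglutarate. For these regions, position therefore gave neighbours of both related carriers and not of the named one alone.

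The rest of the mitochondrial carrier family was examined from a list of 28 other names, of which 12 had a region, 17 regions in all. The remaining 16 names, those of the pyruvate carrier among them, were not analysed here. All 17 regions were tested. In edgeR 4 rose (against 36.6% of all tested regions), 7 fell (against 37.6%) and 6 did not pass, and the median log2 fold change was -0.09. Among the 13 of them over 800 bp, 2 rose, 6 fell and 5 did not pass, with a median of -0.17. The fall outside these was that of ODC1, a region of 57 bp with few reads.

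PIC2, a carrier of phosphate and copper, had the largest fall among the carriers examined. It had 9.19, 8.28 and 8.01 CPM in opaque libraries, against 280.1, 309.7 and 314.9 CPM in white libraries. The log2 fold change was -5.14 (SE 0.0888, edgeR adjusted p = 9.6e-12), at place 29 of 4404 counted from the most strongly lower region. The carriers of adenosine phosphosulphate (YPR011C, -1.21, adjusted p = 1.9e-08), of aspartate and glutamate (AGC1, -1.12, adjusted p = 4.8e-08) and of NAD+ (YIA6, -1.05, adjusted p = 1.2e-06) also fell in edgeR.

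A region named for ORT1, the ornithine carrier, showed the largest rise among the other carriers. Its region at 488170 on scaffold 3 had 83.4, 91.5 and 90.3 CPM in opaque libraries, against 41.1, 42.4 and 40.7 CPM in white libraries, a log2 fold change of 1.09 (SE 0.0642, edgeR adjusted p = 3.8e-08). A pair of further ORT1-named regions of low identity, at 489203 in the same assembled transcript and on scaffold 1, did not pass (-0.17 and 0.1, edgeR adjusted p = 0.33 and adjusted p = 0.6), and summed over all ORT1-named regions the log2 fold change was 0.34. The other rises were smaller and came from overlapping regions. A region of 258 bp named for SAL1, an ATP-Mg/phosphate carrier, rose by 0.77 (edgeR adjusted p = 9.2e-05), but it overlaps the longer SAL1 region, which did not pass (-0.09, adjusted p = 0.28) and fell under other scalings, by 0.2 with upper-quartile factors (adjusted p = 0.018) and by 0.24 with total counts (adjusted p = 0.007). A pair of overlapping regions named for MTM1, a carrier linked to manganese use, rose by 0.54 each (edgeR adjusted p = 0.0002 and adjusted p = 0.00076).

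Genes whose products make or use carried substrates, and those of glycine cleavage and haem synthesis, were counted next. Each name was represented by its most abundant region. Over the most abundant region of every name, 41.1% were higher and 37.4% lower in opaque cells by edgeR and the median log2 fold change was 0.02. The ATP synthase subunits, whose product PET9 exports, fell in 8 of 8 measured names out of 14 listed, with a median of -1.16. Among the 8, the name of ATP19 (-0.53) is uncertain, since its region is 66 bp long and matched at 45.45% identity. ATP1, the alpha subunit, fell by 1.41 on the log2 scale (855.8 ± 13.9 CPM in opaque and 2280.9 ± 78.3 CPM in white cells, SD, n = 3 each; edgeR adjusted p = 3.3e-09), and ATP3, the gamma subunit, fell by 1.26 (adjusted p = 9e-09). PET9 itself stood at -0.71.

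Genes of branched-chain amino acid synthesis, which includes the leucine pathway that OAC1 serves, mostly ran in the other direction. The list holds enzymes and also LEU3, the transcription factor of the pathway. Of 9 measured names 7 rose, 1 fell and 1 did not pass, with a median of 0.87. ILV3, dihydroxyacid dehydratase, had 1132.6 ± 80.4 CPM in opaque and 381.3 ± 9.66 CPM in white cells (log2 fold change 1.57, edgeR adjusted p = 4.6e-09, SD, n = 3 each), and ILV5, the enzyme before it, rose by 1.2 (adjusted p = 4.3e-08). LEU4, which makes the isopropylmalate that OAC1 can export, was the 1 that fell, by 0.35 (edgeR adjusted p = 0.011). OAC1 stood at 1.62, beside ILV3.

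Genes of the glyoxylate cycle, gluconeogenesis from organic acids and succinate use, to which SFC1 supplies succinate and fumarate exchange, fell in 8 of 9 measured names and 1 did not pass, with a median of -1.42. The 1 that did not pass was the glyoxylate cycle enzyme MLS1 (log2 fold change 0.02, edgeR adjusted p = 0.79). The region of ICL1, of the same cycle, held few reads, with 1.61 ± 0.118 CPM in opaque and 3.06 ± 1.01 CPM in white cells (log2 fold change -0.95). PCK1, the first committed enzyme of gluconeogenesis, had 3.9 ± 0.251 CPM in opaque and 118.1 ± 16.2 CPM in white cells (log2 fold change -4.91, edgeR adjusted p = 8.2e-11, SD, n = 3 each). ACS1, an acetyl-CoA synthetase, fell by 3.45 (edgeR adjusted p = 1.2e-10). SFC1 on scaffold 7 stood at -1.0 and DIC1 at -0.44, on the same side as this list but smaller than its median, whereas CTP1 at 3.62 was on the opposite side.

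Glycine cleavage and haem synthesis, processes that begin in the mitochondrion with imported amino acids, were mixed. Of 9 measured names 4 rose, 3 fell and 2 did not pass, with a median of 0.42. SHM1, the mitochondrial serine hydroxymethyltransferase, rose by 0.82 (edgeR adjusted p = 2e-07) and HEM1, the first enzyme of haem synthesis, by 0.72 (adjusted p = 1.8e-06). LPD1, the lipoamide dehydrogenase shared by glycine cleavage and the oxo-acid dehydrogenases, fell by 0.64 (edgeR adjusted p = 4.3e-06), and HEM3, a later enzyme of haem synthesis, fell by 0.25 (adjusted p = 0.002). No carrier described above is said to move glycine or a haem precursor, so this list is not set beside a carrier.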

How the data were processed

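mRNA of 3 opaque and 3 white cultures was compared from the counts of reads per transcribed region that the authors deposited, which are whole numbers without normalization. According to the study's methods, DNase-treated total RNA went into a stranded mRNA kit, paired reads were aligned with STAR to the CLIB830T genome, cufflinks was used to assemble transcripts and to merge them over the libraries, and regions were named by BLAST against S. cerevisiae proteins. The submitters' processing notes list STAR and DESeq2. The version of STAR, the counting tool and its use of strand and of reads that match several places are not given in the sources used here. The fraction of each region covered by reads and the percent identity to the named protein were taken as deposited by the authors and used for description only. The 2 genomic DNA samples were not used here.

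Counts were fitted in edgeR 4.0.16 (R 4.3.3) with TMM normalization, filterByExpr and glmQLFit in its robust form, and cell type was the only factor. All 4404 regions that passed the filter were tested, with Benjamini-Hochberg adjustment over them and a threshold of 0.05. Opaque libraries had TMM factors between 0.9406 and 0.9507 and white libraries between 1.024 and 1.091. The common BCV (the biological coefficient of variation) was 0.0847. The SE of a log2 fold change is its size over the square root of F. The fit was tested on simulated data in which far fewer regions changed than here and all regions had the common BCV. That test therefore does not cover TMM scaling where most regions differ. With 3 cultures against 3 an exact permutation test of a single region cannot go below p = 0.1, so none was run. No pair of libraries was a duplicate (chi-square per degree of freedom of 16.4 to 68.2). The members and the lists of other genes were chosen with earlier results of these data known. Every member region is named, with up to 4 other carrier regions in each direction by size of change and up to 2 names in each direction of the other lists by smallest p, all past the threshold. Any other name is given only where a result turns on it. Alternatives were DESeq2 1.42.0, other scalings, filters and region lengths, a block for culture number, summing regions of a name, and leaving out each library.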

Additional observations from a re-analysis of the deposited data

How the results depend on the processing

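The carrier regions were proposed with their fold changes known, and 74.2% of all tested regions passed the threshold, so their values under the alternatives are a description and no support for the members. None of the 14 changed direction or its side of the threshold in the 199 values obtained. These values include the sums over the regions of a name, each set against a single region of that name. The sum of CTP1 (3.24) ran against CTP1 on scaffold 14 (-1.21), and that of SFC1 (-0.15) ran against the short SFC1 regions. The 60 bp SFC1 region was not tested with at least 10 counts in every library, where 13 regions remained. When the counts of a name were summed before the fit, the 14 regions became 7 names, and all 7 passed (4 higher, 3 lower), fewer by construction. In that fit YMC1 came to 3.42, since its regions differ, and SFC1 to -0.15. With all libraries, the fit counted 3267 regions past the threshold, and leaving out each library gave 3125 to 3216, with 10 to 12 of 17 regions of the other carriers and 31 to 33 of 35 genes of the partner lists. Keeping a single SFC1 region of 66 bp and the longer DIC1 region, an alternative chosen after seeing the data, left 11 of 11 regions past the threshold.

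Scaling shifted all values together. Over all regions the median moved by -0.12 with upper-quartile factors and by -0.16 with total counts, and the split of higher to lower regions, 1611 to 1656 with TMM, became 1402 to 1937 and 1317 to 2021. This turned the sign of a few values near 0 that had not passed. GGC1 came to -0.03 with total counts. ORT1 on scaffold 1 and RIM2 each came to -0.02 with upper-quartile factors and -0.06 with total counts, and ORT1 on scaffold 1 ran from -0.11 without opaque culture 1 to 0.24 without opaque culture 3. Summed per name, SAL1 came to 0.12 and ORT1 to 0.34, in place of -0.09 and -0.17 for the single regions at 356933 and 489203. The ODC1 call (-0.61, edgeR adjusted p = 0.045) was lost in 6 alternatives. It rests on a region of 57 bp with 35 to 156 counts in a library, so that its name is uncertain. The SAL1 region at 356933 passed as lower with upper-quartile factors (-0.2) and total counts (-0.24), the ORT1 region at 489203 passed as lower without opaque culture 1 (-0.37), and SAL1 on scaffold 14 (1.22, without white culture 3) and GGC1 (0.17, without white culture 2) passed as higher.

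Deviations from the cell type mean correlated across regions at r = -0.0196, -0.0553 and 0.226 between opaque and white cultures of the same number. Between cultures of different number r ran from -0.316 to 0.284. With only 3 cultures per cell type, these values cannot decide whether the numbers pair the cultures. The replicate block gave 3259 regions past the threshold, 14 of them members, and 10 regions of other carriers and 31 partner genes. Not every culture correlated best with its own number. Few reads limit the values of SFC1 on scaffold 4 and CTP1 on scaffold 14, and the white value of YMC1 on scaffold 8 is limited by the spread of its libraries rather than by depth.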

Other observations

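The following regions beside the carriers were picked after their values were seen. YJR096W, a putative reductase gene, lies 424 bp after SFC1 on scaffold 7, as its S. cerevisiae counterpart lies beside SFC1, and had 22.4, 21.0 and 20.5 CPM in opaque libraries, against 256.3, 361.7 and 253.6 CPM in white libraries. Its log2 fold change was -3.77 (edgeR adjusted p = 2e-08), in the same direction as SFC1 at -1.0 and larger. On the other side of SFC1, RPL43A, a ribosomal protein gene 920 bp away, went the other way at 0.97 (edgeR adjusted p = 4.9e-07).

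The regions around YMC1 on scaffold 8 did not share its direction as a group. ADH4, an alcohol dehydrogenase gene 1423 bp away, had 20.1, 18.2 and 21.9 CPM in opaque libraries, against 3.79, 3.85 and 2.8 CPM in white libraries, and its log2 fold change was 2.53 (edgeR adjusted p = 2.8e-08). On the other side, SUC2, the invertase gene, had 167.2, 183.6 and 185.0 CPM in opaque libraries, against 933.6, 792.3 and 965.9 CPM in white libraries, a log2 fold change of -2.33 (edgeR adjusted p = 1.1e-09), and YNR029C stood at -1.09 (adjusted p = 4.7e-06). Beside PET9, which was lower in opaque cells, the RNA-binding protein gene HEK2 was higher at 2.41 (edgeR adjusted p = 9.6e-08).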
